A study of Mus musculus with 19 samples.

Results

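The cytoplasmic ribosomal protein genes of the mouse were followed in RNA-seq of retinal cells sorted from embryos at E16.5. Members were taken by symbol, as the protein-coding genes of the GRCm38 annotation named Rpl or Rps followed by a number, Rplp0 to Rplp2 and Rpsa, without pseudogenes and without the ribosomal protein kinases. They came to 83 of the 47069 genes that the count tables list, 32 of the small and 51 of the large ribosomal subunit. Of the 83, 6 are paralogues of another member (Rpl3l, Rpl7l1, Rpl10l, Rpl22l1, Rpl39l and Rps27l), which leaves 77 genes for the standard proteins.

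The libraries were made from C57/DBA F1 embryos at E16.5, labelled WT, with males and females pooled. Cells carried a Sun1-GFP allele, a nuclear envelope protein fused to GFP that is made once Cre has removed a stop cassette, and GFP-positive cells were sorted from dissociated retinas. Retinal ganglion cells (RGCs) are the neurons that send axons from the eye to the brain. The iRGC libraries (3) used the transgenic Cre line ET33, driven by Slc6a4, the serotonin transporter gene also called Sert, which marks ipsilaterally projecting RGCs of the ventrotemporal retina. The cRGC libraries (3) used Cre targeted into Pou4f2, also called Brn3b, a gene of most RGCs, in retinas from which the ventrotemporal part had been cut away, and so stand for contralaterally projecting RGCs. Cre leaves GFP in the cell and in its descendants, whatever they later express. How many embryos went into an RNA library is not given in the sources used here, and nothing says that libraries came from separate litters, so p-values measure the spread between these libraries, which may in part be technical.

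A ribosome pairs a small subunit, which reads the mRNA, with a large subunit, which joins the amino acids, and most ribosomal proteins are needed in equal number in each ribosome. Their mRNAs are among the most abundant of growing and dividing cells. Nearly all begin with a 5′ terminal oligopyrimidine tract (TOP), a C at the cap followed by a run of pyrimidines, through which the kinase mTOR and the protein Larp1 control their translation together. Their genes have also left many processed pseudogenes in the genome, so a short read from a ribosomal protein mRNA often matches several places.

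RefSeq starts of GRCm38.p6 were found for 63 of the 83 members. An annotated start can lie away from the base at which the mRNA begins, so a count of tracts at the start base is not the share of members with a TOP. A C with at least 4 further pyrimidines, beginning exactly at the annotated start base, was present in 13 of these 63 members (20.6%) and in 3.01% of all 27025 genes with such a sequence. With the C allowed up to 15 bases to either side of the start and 7 further pyrimidines required, it was 28 of 63 members (44.4%) and 13.1% of all genes. The following windows run from 12 bases before the start base to 24 bases from it, on the strand of the gene, with the tract in capitals where it begins at the start base. The first 4 genes were higher in iRGCs and the next 3 were not called, as described further on, and the last pair are paralogues with no tract at this position.

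Rps10: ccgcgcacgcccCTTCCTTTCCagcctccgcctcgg
Rps18: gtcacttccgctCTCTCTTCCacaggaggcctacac
Rpl35a: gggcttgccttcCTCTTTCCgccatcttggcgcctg
Rplp2: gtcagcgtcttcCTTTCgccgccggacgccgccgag
Rpl15: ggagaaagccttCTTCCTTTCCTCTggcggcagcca
Rpl28: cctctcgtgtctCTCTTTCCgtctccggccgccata
Rps6: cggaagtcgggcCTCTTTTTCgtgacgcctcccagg
Rpl22l1: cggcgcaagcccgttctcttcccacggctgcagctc
Rps27l: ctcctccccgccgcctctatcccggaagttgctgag

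Each window covers the promoter end and the first bases of exon 1 of its gene. On the minus strand lie Rps10 at chr17:27635221-27635256, Rps18 at chr17:33955642-33955677, Rpl15 at chr14:18270963-18270998 and Rps6 at chr4:86857344-86857379. On the plus strand lie Rpl35a at chr16:33056470-33056505, Rplp2 at chr7:141447639-141447674, Rpl28 at chr7:4792953-4792988, Rpl22l1 at chr3:28805496-28805531 and Rps27l at chr9:66946074-66946109. Rpl35a and Rps27l have further RefSeq starts with no tract at the start base. The tract lay at the start base of 7 of the 35 members with a sequence that were called higher and of 5 of the 24 that were not called. The longer tract near the start was held by 18 of the 35 (51.4%) and 9 of the 24 (37.5%). In the 300 bases of each promoter, 250 before and 50 from the start, the word CCGGAAG, to which factors of the ETS family bind, stood on either strand in 26 of 63 members (41.3%) and in 9.93% of all genes. It was held by 13 of the 35 called higher and 11 of the 24 not called. The E-box CACGTG, on its single palindromic form, stood in 6 of 63 members (9.52%) and in 8.09% of all genes, and AAGATGGC, a word of the factor YY1, in 6 of 63 (9.52%) and 3.19%. Each of these words stood in 5 of the 35 called higher and 1 of the 24 not called, and none of the splits by call was tested.

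Reads of 50 bases were counted by the authors only where they aligned to a single place, so how much of each mRNA can be told from the rest of the genome bears on every level below. Each 50-base window of a member's mRNA was therefore looked up in the genome and in the transcripts of other genes. The median share of windows found nowhere else was 38.0%, and it ran from 0.338% for Rps27, with 1 such window, to 100%, as in Rpl3l and Rpl39l. Fewer than 50% of the windows were unique in 55 of the 83 members and fewer than 10% in 13 members, while 7 members had at least 90%. Each member was represented by a single annotated mRNA, of 345 to 5179 bases, so these shares depend on the mRNA taken. The paralogue pair Rps27 and Rps27l shows what a 50-base read can separate. The first 90 coding bases of each are given with the bases that differ in capitals.

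Rps27: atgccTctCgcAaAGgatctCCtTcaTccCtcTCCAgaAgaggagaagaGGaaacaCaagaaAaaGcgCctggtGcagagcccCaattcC
Rps27l: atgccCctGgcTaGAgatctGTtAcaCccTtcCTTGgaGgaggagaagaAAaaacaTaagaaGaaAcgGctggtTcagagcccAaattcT

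Over the whole coding sequence of 255 bases, 194 bases (76.1%) were identical, the longest identical run was 11 bases, and no 50-base window was shared. Reads of the 2 genes can thus be told from each other, and it was the other copies of Rps27, matched by its windows at 13 further loci, that left Rps27 with 1 unique window. Rps27l had unique windows along 73.3% of its mRNA.

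**Figure D1:**
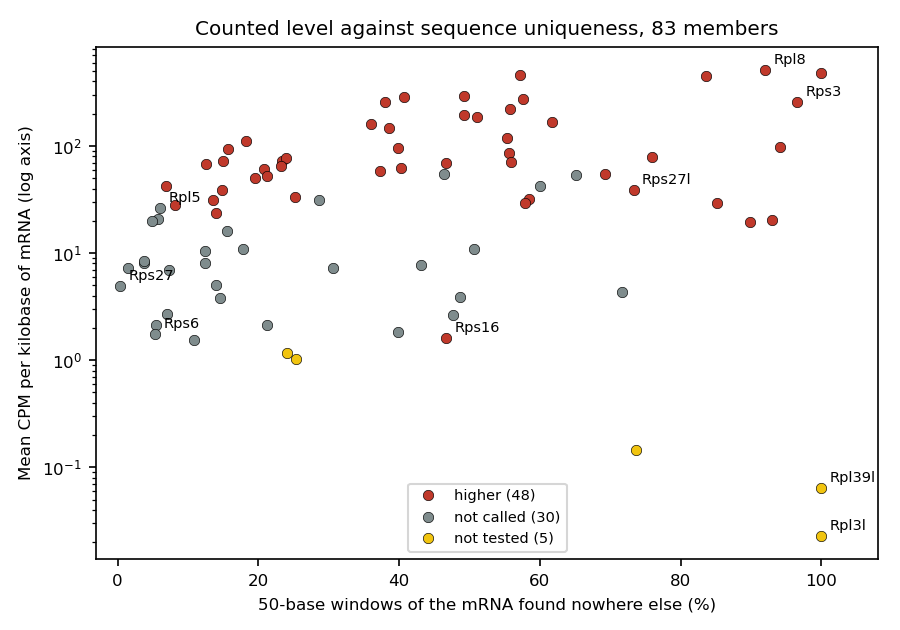
Mean level of each of the 83 members, as CPM per kilobase of mRNA on a log axis, against the share of its 50-base windows found nowhere else, with color for the call. Rps27 and Rps6 lie at the left with few unique windows and low counted levels, Rpl8 at the upper right, and Rpl3l and Rpl39l at the lower right with unique mRNAs and almost no counts.

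Levels are given as CPM, gene counts over library sizes that were scaled by the TMM factors of edgeR, and per kilobase of the member's mRNA where genes are set side by side. On the per kilobase scale Rpl8 was highest with a mean of 508 over the 6 libraries, Rps14 with 455 and Rpl4 with 445 were also among the highest members, and the median of the 78 members tested was 40.4. Rpl8 lies beside the centre where peptide bonds form, and Rps14 is needed to finish the small subunit's RNA. The lowest among those tested were Rpl24 at 1.55, Rps16 at 1.60 and Rps6 at 1.75. Rps16 had unique windows along 46.7% of its mRNA and Rps6 along 5.31%. The mRNA taken for Rps16 has 1109 bases, beside a median of 830 over the members, and its windows matched 3471 further loci. Across the 83 members, the mean count rose with the number of unique windows only loosely (Spearman's rho 0.449, Pearson's r 0.343 on log values, a description in which all points share the same libraries). The log level per kilobase had a Spearman's rho of 0.342 and a Pearson's r of 0.135 with the share of unique windows. Whether the counted levels rank the members by their RNA was not tested, and the text compares each member with itself between populations.

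As a whole, these genes took a larger part of the library in iRGCs. The 83 members took 0.802%, 0.784% and 0.780% of the counts on genes in iRGC replicates 1 to 3, and 0.408%, 0.477% and 0.451% in cRGC replicates 1 to 3. The populations did not overlap, with means of 0.789% ± 0.0116 and 0.445% ± 0.0347 (SD, n = 3), a ratio of 1.77. Behind these shares stand 226074 to 240917 member counts in iRGCs and 115400 to 151868 in cRGCs, of 28193178 to 33638083 counts on genes per library. Small subunit genes made up 43.3% ± 0.604 of the member counts in iRGCs and 40.9% ± 0.374 in cRGCs (SD, n = 3), again without overlap. Alignments that were not unique, and so not counted, made up 29.6%, 30.5% and 33.0% of the tallied alignments in iRGCs and 25.9%, 28.2% and 28.2% in cRGCs, and their part in these shares was not tested. Pseudogenes named for a ribosomal protein that the tables list held 0.633% to 0.788% as many counts as the members, and they were not part of the members.

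In sorted cells measured in bulk, fewer cells of a type and less RNA per cell cannot be told apart, and the 2 populations differed in their cell type markers. Of 16 progenitor markers, genes of the dividing retinal cells that give rise to neurons, 15 were higher in iRGCs and Pax6 was not called. The geometric mean of the list was 420, 404 and 333 CPM in iRGCs and 50.4, 111 and 74.96 CPM in cRGCs, and its summed level 10994, 9777 and 8709 CPM against 1836, 3105 and 2434 CPM. Its most abundant gene was Ccnd1, which encodes cyclin D1. Of 16 RGC markers, 15 were lower in iRGCs, with a geometric mean of 130, 169 and 259 CPM in iRGCs and 710, 635 and 626 CPM in cRGCs, and Tubb3 was the most abundant. Within each population the ribosomal protein share followed the order of the progenitor list, highest in iRGC replicate 1 and lowest in iRGC replicate 3, and highest in cRGC replicate 2 and lowest in cRGC replicate 1. That share is not scaled by TMM factors, while the progenitor levels are. On the TMM scale the order did not hold. The median log2 CPM of the tested members was 5.464, 5.462 and 5.620 in iRGC replicates 1 to 3 and 4.923, 5.017 and 4.915 in cRGC replicates 1 to 3. The part of the progenitors in the ribosomal protein levels was not tested.

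**Figure D2:**
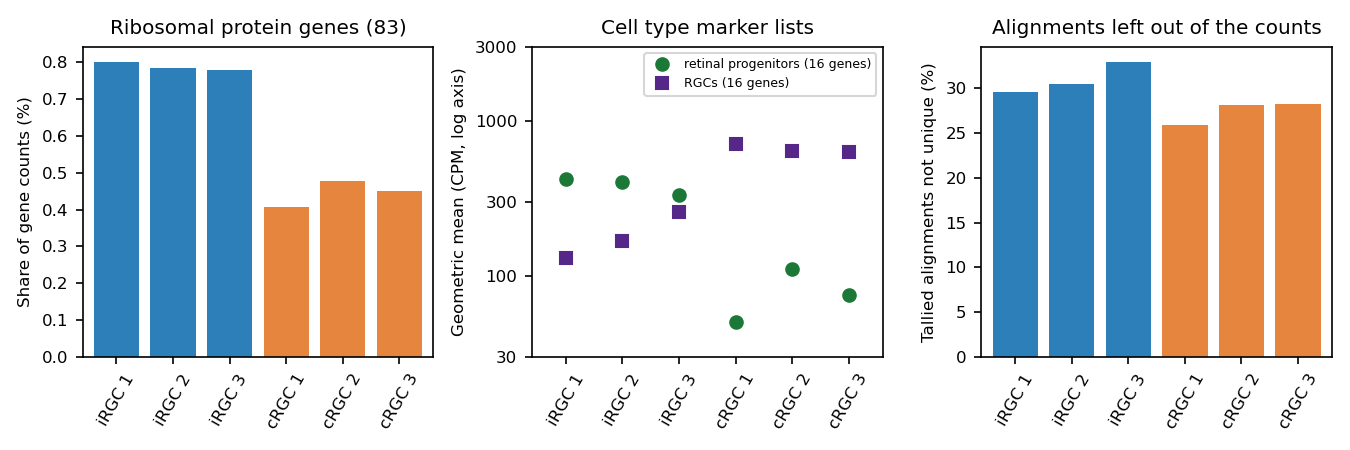
The 6 libraries, iRGC in blue and cRGC in orange in the outer panels: the share of gene counts on the 83 members (%), the geometric mean of the progenitor and RGC marker lists (CPM, log axis) and the share of tallied alignments that were not unique (%). All 3 iRGC libraries had a larger ribosomal protein share and a higher progenitor level than any cRGC library.

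The labels were checked on genes that define the populations. Zic2, the transcription factor of ipsilateral RGCs, was at 133, 173 and 157 CPM in iRGCs and 57.0, 60.2 and 65.7 CPM in cRGCs. Slc6a4, whose Cre line defines the iRGCs, was at 2.06, 33.4 and 116 CPM in iRGCs and 48.1, 35.4 and 30.5 CPM in cRGCs. It was thus lowest in iRGC replicate 1, and the groups overlapped (log2 fold change 0.41 ± 0.93 SE). Of the 4 genes listed for ipsilateral identity, Zic2 and Boc were higher, and Slc6a4 and Ephb1 (-0.26 ± 0.28 SE) were not called. Their geometric mean was 18.5, 50.2 and 66.4 CPM in iRGCs and 28.0, 28.3 and 32.8 CPM in cRGCs, so iRGC replicate 1 lay below every cRGC library. Pou4f2 was at 74.7, 133 and 98.3 CPM in iRGCs and 191, 196 and 293 CPM in cRGCs. Endothelial markers, of which 6 of the 10 listed could be tested and all 6 were called higher in iRGCs, stood out in iRGC replicate 2, with a geometric mean of 39.4 CPM against 8.60 and 2.24 CPM in iRGC replicates 1 and 3 and 1.21 to 1.48 CPM in cRGCs, and so did mural cell markers (4 of 5 tested higher) at 14.5 CPM, against 3.17 and 4.53 CPM and 1.14 to 1.52 CPM. Every iRGC library lay above every cRGC library in 4 of the 6 endothelial genes. Pecam1, Flt1 and Esam of this list were not called in some other fits. The filter on low counts can pass a gene through iRGC libraries alone, so these tallies do not test the lists. Erythroid genes (4 of 5 tested higher), led by Hbb-bs, summed to 94.7 CPM in iRGC replicate 2 and to 15.8 CPM or less in every other library. The 15 genes of the response to tissue dissociation had a geometric mean of 47.4, 78.4 and 52.3 CPM in iRGCs and 20.6, 21.7 and 25.5 CPM in cRGCs, and 10 of them were higher in iRGCs. Of the lists of other retinal cells, neurogenic precursors had 9 of 10 tested markers higher and Sox11 lower, photoreceptor precursors 6 of 7 higher and Rxrg lower, and amacrine cells 6 of 8 higher. Horizontal cells had 2 of 6 higher, with geometric means that overlapped between the populations. Microglia markers had 4 of 6 tested genes higher, with geometric means of 1.78, 2.73 and 2.31 CPM in iRGCs and 0.614, 0.980 and 0.666 CPM in cRGCs. Markers of fibroblasts (1 of 3 tested higher), lens (0 of 3) and pigment epithelium (1 of 5) had geometric means under 3 CPM in every library. The shares to read these marker counts against are those of all tested genes, 23.3% higher and 23.1% lower. The part of these cells in the results below was not tested. Without iRGC replicate 2, 44 members were called higher, and the members' median log2 fold change was 0.64.

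Gene by gene, iRGCs were compared with cRGCs in edgeR's quasi-likelihood test over all genes that passed the filter on low counts, and a gene was called at a Benjamini-Hochberg adjusted p under 0.1 over all 15941 genes tested. Of the 83 members, 78 passed the filter. Higher in iRGCs were 48 of these 78, beside 23.3% of all tested genes, and lower were 0, beside 23.1% of all tested genes, with 46.4% of all tested genes called in either direction. At an unadjusted p under 0.05 the count of lower members was also 0, and DESeq2 and limma voom called 0 lower and 48 higher each. The median log2 fold change over the 78 members was 0.60, a 1.52-fold higher level, while the median over all tested genes was 0.00, and 72 of the 78 had a positive value, against 49.9% of all tested genes. Every iRGC library lay above every cRGC library in 51 of 78 members, against 27.1% of all tested genes, and the reverse held in 0 members, against 28.2%. Of the 48, 40 were also called in each of 17 other fits, and 8 (Rpl14, Rpl22, Rpl26, Rpl27a, Rpl29, Rpl34, Rps15a and Rps16) were lost in some, in each case when cRGC replicate 1 was left out, which gave 41 members higher. Leaving out any other library gave 44 to 47. Of the members not called, 6 were called higher in at least 1 other fit.

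**Figure D3:**
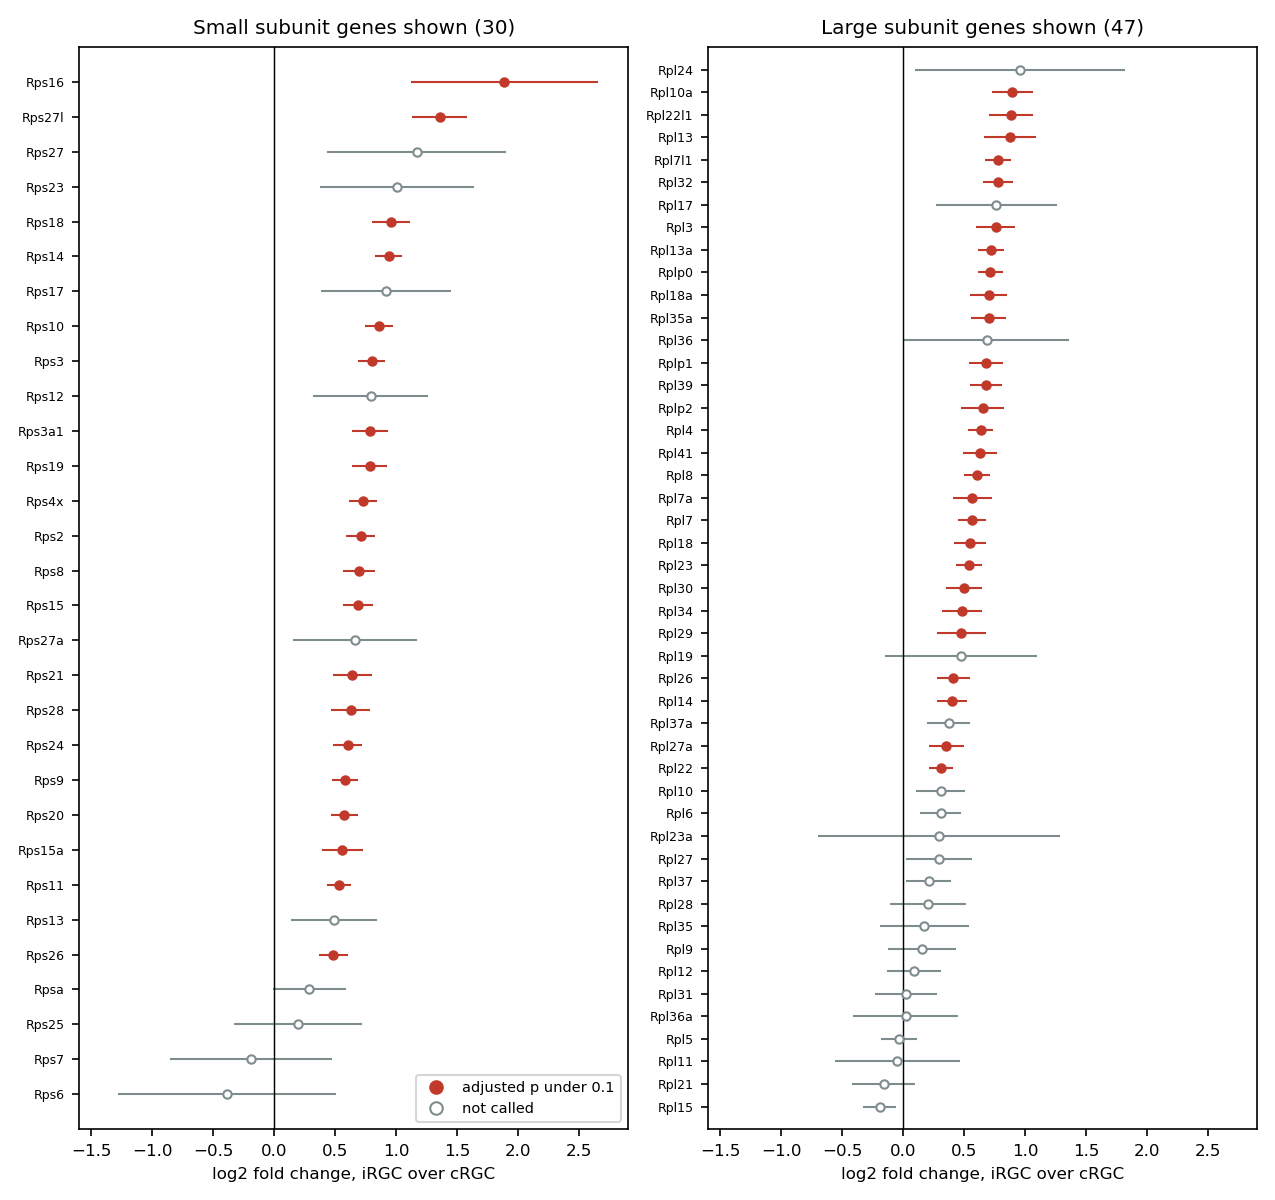
The log2 fold change of iRGCs over cRGCs for 77 of the 78 members tested, by subunit, with bars of 1 SE and filled points for an adjusted p under 0.1. Called members run from 0.31 (Rpl22) to 1.89 (Rps16), and the 6 members below 0 are open points.

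How often a member was called moved with its counts. Normalized counts are given here at the mean library size. Of 44 members whose normalized counts averaged 1000 or more, 40 were higher and 0 lower, against 26.6% higher and 35.7% lower among all tested genes with as many counts. Of 22 members with 100 to 1000 it was 7 higher and 0 lower, against 29.4% and 20.6%. Of 12 tested members under 100 it was 1 higher and 0 lower, against 8.83% and 4.36%. The median log2 fold change in the 3 classes was 0.64, 0.34 and 0.72, so it was not smallest in the class with the fewest counts. Members called higher had a median SE of 0.13 on the log2 scale and a median of 1833 normalized counts, and those not called a median SE of 0.40 and a median of 189 normalized counts. Among the 25 tested members with at least 50% unique windows, 21 were higher and the median log2 fold change was 0.60. Rps12, a poorly counted member, was at 3.47, 3.03 and 4.79 CPM in iRGCs and 1.999, 2.52 and 2.001 CPM in cRGCs. It was not called (0.79 ± 0.47 SE, edgeR adjusted p = 0.223), although its groups did not overlap, and the part of depth was not tested.

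**Figure D4:**
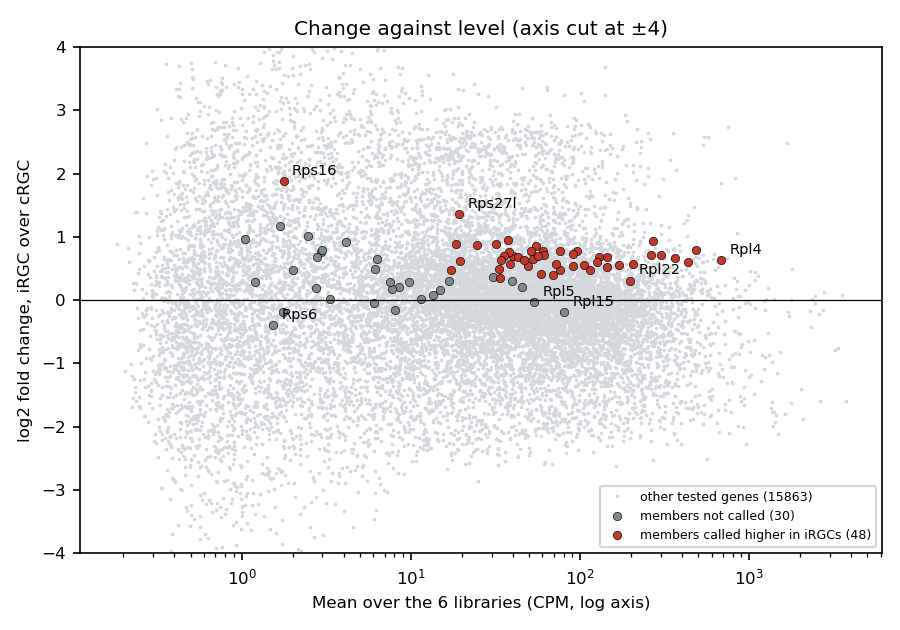
The log2 fold change of every tested gene against its mean level over the 6 libraries (CPM, log axis), with ribosomal protein genes marked by call. The well counted members gather around their median of 0.60, with Rpl15 (-0.19) and Rpl5 (-0.04) below 0.

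The small subunit had 20 of 30 tested genes higher (paralogues left out) with a median log2 fold change of 0.67, and the large subunit 25 of 45 with a median of 0.48. Among the most counted genes of the small subunit, Rps3 lines the path by which mRNA enters and was named after its values were seen. It was at 644, 577 and 634 CPM in iRGCs and 319, 395 and 355 CPM in cRGCs. The lowest iRGC library was well above the highest cRGC library, and the log2 fold change was 0.80 ± 0.11 SE (edgeR adjusted p = 0.000716). Rps14 was at 348, 359 and 364 CPM in iRGCs and 162, 193 and 204 CPM in cRGCs, with a log2 fold change of 0.94 ± 0.11 SE (edgeR adjusted p = 0.000373). Rps15, which touches the tRNA at the decoding site, was at 158, 179 and 199 CPM against 100, 121 and 112 CPM, and rose by 0.68 ± 0.12 SE (edgeR adjusted p = 0.00243).

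Rps18, in the head of the small subunit, had the largest change of a standard small subunit gene with at least 100 normalized counts, at 56.9, 43.2 and 48.7 CPM in iRGCs and 23.0, 26.1 and 27.7 CPM in cRGCs (log2 fold change 0.95 ± 0.15 SE, edgeR adjusted p = 0.00136). Its exons share 6.37% of their bases with those of Vps52, and 12.5% of its windows are unique. Rps16, chosen after its value was seen because only it and Rps27l were called higher with a log2 fold change above 1 (12.1% of all tested genes were), was at 5.18, 1.33 and 1.86 CPM in iRGCs and 0.730, 0.587 and 0.936 CPM in cRGCs. Its 1.89 ± 0.76 SE (edgeR adjusted p = 0.0820) was 1.08 without iRGC replicate 1 (edgeR adjusted p = 0.297), and the call was lost in 7 of 17 other fits, limma voom and 4 with a library left out among them. Rps6, the substrate of the S6 kinases, was at 0.354, 1.48 and 2.14 CPM in iRGCs and 3.15, 1.14 and 0.936 CPM in cRGCs, which overlap. Its log2 fold change of -0.39 ± 0.89 SE has an error larger than the change.

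In the large subunit the 3 proteins of the stalk were all higher. The stalk is the arm that draws elongation factors to the ribosome, with Rplp0 at its base and pairs of Rplp1 and Rplp2 along it. Rplp0 was at 305, 339 and 336 CPM in iRGCs and 183, 203 and 211 CPM in cRGCs (log2 fold change 0.71 ± 0.10 SE, edgeR adjusted p = 0.000813). Rplp1 was at 154, 164 and 161 CPM against 79.1, 110 and 110 CPM, and Rplp2 at 65.2, 59.0 and 70.3 CPM against 34.1, 52.3 and 37.6 CPM. Their log2 fold changes were 0.68 ± 0.14 SE and 0.65 ± 0.17 SE (edgeR adjusted p = 0.00460 and 0.0164), and the libraries of the 2 populations did not overlap in any of the 3 genes. Differences among the stalk genes were not tested.

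Of the 3 proteins that line the tunnel through which the new chain leaves, Rpl4 and Rpl39 were higher. Rpl4, the most counted member with 11.3% of all member counts, was at 797, 856 and 844 CPM in iRGCs and 488, 553 and 568 CPM in cRGCs. Its log2 fold change was 0.63 ± 0.10 SE (edgeR adjusted p = 0.00131), and 83.5% of its windows were unique. Rpl39 was at 55.5, 54.5 and 48.7 CPM against 30.9, 36.5 and 31.8 CPM (0.68 ± 0.13 SE, edgeR adjusted p = 0.00333). Rpl17, with 14.6% unique windows and 58 further loci, was at 5.24, 2.91 and 2.96 CPM and 2.46, 1.83 and 2.26 CPM and was not called (0.76 ± 0.50 SE), although its groups did not overlap. With a library left out, its log2 fold change ran from 0.43 to 0.91.

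Rpl8 was at 526, 502 and 539 CPM in iRGCs and 310, 354 and 366 CPM in cRGCs (log2 fold change 0.60 ± 0.10 SE, edgeR adjusted p = 0.00177). Rpl10a, the protein of the flexible L1 stalk by which spent tRNA leaves, was at 43.4, 44.0 and 37.1 CPM against 23.5, 18.5 and 24.9 CPM. Its 0.90 ± 0.16 SE (edgeR adjusted p = 0.00257) was the largest change of a standard large subunit gene with at least 100 normalized counts. Rpl13 followed at 38.6, 27.5 and 29.3 CPM against 19.8, 18.7 and 13.6 CPM (0.88 ± 0.21 SE, edgeR adjusted p = 0.00969). Both rest on few unique windows, 14.9% for Rpl10a and 13.5% for Rpl13.

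Neither protein of the 5S RNP was called. Rpl5 and Rpl11 bind the 5S rRNA, bring it into the large subunit, and outside the ribosome can hold the p53 ligase Mdm2. Rpl5 was at 61.3, 42.8 and 54.7 CPM in iRGCs and 52.6, 55.0 and 55.2 CPM in cRGCs, with iRGC replicate 2 the lowest and iRGC replicate 1 the highest of all 6. Its log2 fold change was -0.04 ± 0.15 SE (edgeR adjusted p = 0.878), while 6.01% of its windows were unique and 26.7% of its exonic bases shared with other genes, Fam69a among them. Rpl11 was at 2.06, 5.996 and 9.90 CPM against 5.77, 7.25 and 5.55 CPM (-0.05 ± 0.51 SE), and its iRGC libraries alone spanned the whole range.

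With Rpl5, 3 other members with at least 1000 normalized counts were not called, Rpl15, Rpl6 and Rpl37, named here after their values were seen. Rpl15, a protein of the large subunit core, was at 69.6, 72.3 and 84.9 CPM in iRGCs and 95.5, 88.6 and 75.4 CPM in cRGCs. The groups overlapped, and the log2 fold change was -0.19 ± 0.13 SE (edgeR adjusted p = 0.289). Of its windows 60.01% were unique, and its start carries a tract of 13 pyrimidines. Rpl6 (0.31 ± 0.17 SE, edgeR adjusted p = 0.184) and Rpl37 (0.21 ± 0.19 SE, edgeR adjusted p = 0.425) had positive values. With library totals in place of TMM factors both were called higher, and Rpl6 also without iRGC replicate 1.

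Setting a member against the others of the same library needs no scaling factor. For each 1000 counts on the other members, Rpl15 had 9.66, 10.1 and 11.3 in iRGCs and 22.0, 18.0 and 15.6 in cRGCs, and Rpl5 had 8.51, 5.97 and 7.26 against 11.997, 11.1 and 11.4. Rpl4 had 123, 135 and 125 against 124, 124 and 131, so its part among the members overlapped between the populations. Rps14 had 50.2, 52.4 and 50.3 against 37.9, 40.1 and 43.5, without overlap. Rpl22 had 33.3, 29.8 and 29.5 against 40.8, 37.8 and 37.3, and Rps27l 4.28, 3.95 and 3.16 against 1.97, 1.96 and 2.87. So Rpl15, Rpl5 and Rpl22 made up less of the ribosomal protein counts in every iRGC library, and Rps14 and Rps27l more. The exact permutation test, two-sided, gave p = 0.1 for each of these 5 members, the smallest value that 3 libraries against 3 allow, and p = 0.7 for Rpl4 (Benjamini-Hochberg adjusted over the 6 members 0.12 and 0.7). The 6 members were picked after their values were seen, and none can pass 0.05.

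Of the 6 paralogues, the 3 that passed the filter on low counts were higher. Rps27l, a target of p53, was at 31.0, 28.3 and 23.9 CPM in iRGCs and 8.73, 9.80 and 14.0 CPM in cRGCs. The lowest iRGC library was above the highest cRGC library, and the log2 fold change of 1.35 ± 0.23 SE, 2.56-fold, was the largest of any member with at least 100 normalized counts (edgeR adjusted p = 0.00163). Its parent Rps27, with its single unique window, was at 2.38, 1.48 and 3.15 CPM against 1.54, 1.10 and 0.484 CPM (1.17 ± 0.73 SE, edgeR adjusted p = 0.247).

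Rpl22l1, a paralogue that can take the place of Rpl22 and whose expression Rpl22 is known to hold down, was at 21.4, 27.6 and 22.5 CPM in iRGCs and 12.5, 12.6 and 13.7 CPM in cRGCs (0.88 ± 0.18 SE, edgeR adjusted p = 0.00461). Rpl22 was at 235, 209 and 217 CPM against 174, 183 and 176 CPM. Its 0.31 ± 0.10 SE (edgeR adjusted p = 0.0305) was the smallest change among the members called, and it was lost without cRGC replicate 1 (0.29 ± 0.12 SE, edgeR adjusted p = 0.105). Rpl7l1 was at 101, 94.3 and 94.0 CPM against 58.8, 56.8 and 52.8 CPM (0.78 ± 0.11 SE, edgeR adjusted p = 0.000626), and Rpl7, its parent, at 203, 192 and 215 CPM against 122, 142 and 150 CPM (0.56 ± 0.11 SE, edgeR adjusted p = 0.00407). The difference between a paralogue and its parent was not tested.

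Rpl3 (0.76 ± 0.16 SE, edgeR adjusted p = 0.00470), Rpl39 and Rps4x, the parent of Rps4l, which the annotation holds as a pseudogene (0.73 ± 0.12 SE, edgeR adjusted p = 0.00127) were the other parent genes that were higher, and Rpl10 was not called (0.31 ± 0.20 SE, edgeR adjusted p = 0.272). The muscle paralogue Rpl3l had counts in iRGC replicate 3 alone (6 counts), Rpl39l, known from testis, in cRGC replicate 2 alone (9 counts), and Rpl10l, also of testis, in iRGC replicates 1 and 3 (24 and 4 counts). These 3 genes failed the filter on low counts although most of their windows are unique, from 73.7% for Rpl10l to 100%. The other members that failed it were Rpl38, with 1 to 31 counts per library, and Rps29, also with 1 to 31.

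Proteins of the ribosome outside the symbol rule were looked at beside the members. Rack1, a scaffold on the small subunit, was at 618, 645 and 658 CPM in iRGCs and 382, 432 and 454 CPM in cRGCs, a rise of 0.60 ± 0.10 SE (edgeR adjusted p = 0.00183) that stood at the members' median. Fau, whose ribosomal protein is made fused to a relative of ubiquitin, stayed under 2 CPM in every library and was not called (1.11 ± 0.90 SE). Rps27a, the fusion protein among the members, named after its values were seen, was at 10.4, 4.95 and 7.98 CPM against 6.88, 6.04 and 1.84 CPM (0.66 ± 0.51 SE, not called).

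Other genes of protein synthesis were counted by list. The shares to read these counts against are those of all tested genes, 23.3% higher and 23.1% lower. Counts given below for library totals in place of TMM factors have another background. In that fit 5100 of the 15941 tested genes were higher and 2842 lower. Of 18 other mRNAs known to carry a TOP, 11 were higher (61.1%) and 0 lower in edgeR, DESeq2 and limma voom called 0 lower as well, and 0 had a negative change at an unadjusted p under 0.05. The median log2 fold change was 0.31, the higher genes were 6 and 7 without cRGC replicate 1 and 2 and 6 with no filter on low counts, and without iRGC replicate 3 there was 1 lower gene, Eef2. Among them Nap1l1, a histone chaperone, was at 439, 444 and 452 CPM in iRGCs and 200, 260 and 235 CPM in cRGCs (0.94 ± 0.12 SE, edgeR adjusted p = 0.000405). Npm1, the nucleolar chaperone nucleophosmin, rose by 0.84 ± 0.10 SE and Pabpc1, the poly(A)-binding protein, by 0.78 ± 0.10 SE (edgeR adjusted p = 0.000347 and 0.000474). Eef2, which moves the ribosome along the mRNA, was not called (-0.17 ± 0.11 SE, edgeR adjusted p = 0.249), and without iRGC replicate 3 it was lower (-0.26 ± 0.09 SE, edgeR adjusted p = 0.0537).

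Factors that assemble ribosomes moved mostly in the same direction as the members. Of 71 assembly factors tested, 45 (63.4%) were higher and 5 (7.04%) lower, with a median log2 fold change of 0.41, 34 to 44 were higher with a library left out, and the lower ones were 3 without iRGC replicate 2 or cRGC replicate 1. With library totals 60 were higher and 2 lower. Rrs1, Utp20 and Rrp15 rose by 1.16 ± 0.23 SE, 1.10 ± 0.15 SE and 1.09 ± 0.17 SE (edgeR adjusted p = 0.00341, 0.000531 and 0.000990). Gnl3l, a nucleolar GTPase, was at 107, 130 and 126 CPM in iRGCs and 222, 229 and 204 CPM in cRGCs and fell by 0.85 on the log2 scale (SE 0.11, edgeR adjusted p = 0.000527), and Bysl and Bop1 were lower as well, Bop1 not with library totals in place of TMM factors (-0.22, edgeR adjusted p = 0.163). Of the 8 core proteins of the small nucleolar RNPs, which modify rRNA, 5 were higher and 0 lower, also at an unadjusted p under 0.05 and in DESeq2 and limma voom, and the higher ones were 3 without iRGC replicate 3 or cRGC replicate 2 and with no filter. Gar1 rose by 1.505 ± 0.20 SE and Dkc1, the pseudouridine synthase of the same particle, by 0.92 ± 0.13 SE (edgeR adjusted p = 0.000600 and 0.000719). Of 19 genes of RNA polymerase I and its factors, which transcribe the rRNA, 7 (36.8%) were higher and 1 (5.26%) lower. With a library left out 5 to 8 were higher, with library totals 12 were higher, and 2 were lower among protein-coding genes alone. Polr1a, its largest subunit, rose by 0.67 ± 0.12 SE (edgeR adjusted p = 0.00265), while Rrn3, which brings the polymerase to the rRNA genes, fell by 0.48 (SE 0.11, edgeR adjusted p = 0.00691).

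Of 40 initiation factors tested, 11 were higher, 27.5% beside 23.3% of all tested genes, and 2 lower, 5.00% beside 23.1%. Their median log2 fold change was 0.18, and the lower ones were 5 without iRGC replicate 3 and 1 without iRGC replicate 1, cRGC replicate 1 or cRGC replicate 3. With library totals 22 were higher and 0 lower. Of 13 elongation and release factors, 7 (53.8%) were higher and 2 (15.4%) lower, the higher ones were 3 without iRGC replicate 2 or cRGC replicate 1 and 4 without cRGC replicate 2 or with no filter, and the lower ones were 4 without iRGC replicate 3. The 2 that were lower are factors of mature neurons and of elongation control: Eef1a2, the neuronal form of elongation factor 1A, was at 16.4, 18.7 and 39.0 CPM in iRGCs and 99.3, 96.4 and 109 CPM in cRGCs (-2.04 ± 0.30 SE, edgeR adjusted p = 0.000859), and Eef2k, the kinase that inhibits Eef2, at 18.4, 18.7 and 29.5 CPM against 67.0, 68.5 and 69.8 CPM (-1.62 ± 0.20 SE, edgeR adjusted p = 0.000368). Eef1a1, the widely used form, was called higher (0.33 ± 0.11 SE, edgeR adjusted p = 0.0372) but not without iRGC replicate 2 or cRGC replicate 1 or with no filter on low counts (edgeR adjusted p = 0.102, 0.106 and 0.113).

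Of 21 genes of the mTORC1 pathway and the Myc family, which control ribosome production, 3 were higher (14.3%) and 5 lower (23.8%, close to the 23.1% of all tested genes), with a median log2 fold change of -0.15. The lower ones were 3 without iRGC replicate 1 or cRGC replicate 1 or 2, and with library totals 6 were higher and 2 lower. Eif4ebp1, a repressor of cap-dependent translation that mTORC1 switches off, was at 19.4, 13.5 and 19.96 CPM in iRGCs and 2.35, 5.52 and 5.23 CPM in cRGCs (2.01 ± 0.36 SE, edgeR adjusted p = 0.00215). Mtor itself was at 110, 137 and 120 CPM against 180, 167 and 179 CPM and fell by 0.52 on the log2 scale (SE 0.11, edgeR adjusted p = 0.00619). Larp1 was not called (-0.07 ± 0.10 SE, edgeR adjusted p = 0.627), nor were Eif4ebp2 and Mycn. Myc was lower (-0.97 ± 0.35 SE, edgeR adjusted p = 0.0547), with overlapping groups, and was not called without iRGC replicate 1 or 2 or cRGC replicate 1 or 2 (edgeR adjusted p = 0.126 to 0.179), and Mycl was higher (0.47 ± 0.13 SE, edgeR adjusted p = 0.0208).

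Of 22 cytoplasmic aminoacyl-tRNA synthetases, which load the tRNAs, 8 were higher (36.4%) and 3 lower (13.6%), with a median log2 fold change of 0.07. The higher ones were 5 without iRGC replicate 2 or 3 or cRGC replicate 2 or 3 and with no filter. The lower ones were 0 without iRGC replicate 1 or 2 and with library totals, and 1 without cRGC replicate 3. The mitochondrial ribosome, a separate particle with its own proteins, had 19 of 77 tested genes higher and 3 lower with a median of 0.19. Its higher genes were 10 without cRGC replicate 3, 11 without iRGC replicate 3 or cRGC replicate 1 and 12 without cRGC replicate 2, and its lower genes 1 without iRGC replicate 1 or 2 or cRGC replicate 2 or 3. With library totals 33 were higher and 0 lower. Its 24.7% of genes called higher was close to the share among all tested genes, where the cytoplasmic members had 61.5%. Its 3.90% called lower was below the 23.1% of all tested genes, and 53 of its values were positive and 24 negative. Progenitor markers were higher and RGC markers lower in the same libraries in which these lists moved, and their part in the lists was not tested.

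**Figure D5:**
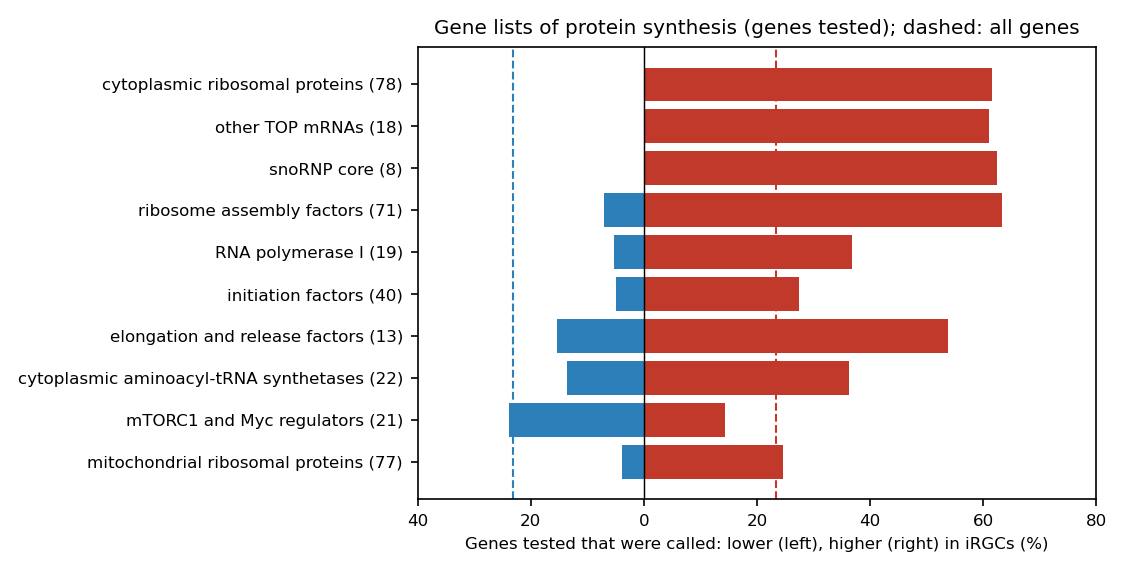
Share of the tested genes of each list that were called higher (right, red) or lower (left, blue) in iRGCs, in percent, with dashed lines for all tested genes (23.3% higher, 23.1% lower). Cytoplasmic ribosomal proteins, other TOP mRNAs and core proteins of small nucleolar RNPs had no gene called lower.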

How the data were processed

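Per the labels and methods, the authors aligned 50-base reads to mm10 with HISAT2 2.1.0, counted uniquely aligned reads on Ensembl genes with HTSeq 0.11.1, and deposited raw counts per gene, 1 table per library. Strand setting is not given in the sources used here. Symbols came from GENCODE M21 for 46574 of 47069 genes. Tally lines of HTSeq were kept apart from library sizes and from every test. Of tallied alignments, 8.09% to 16.8% overlapped no gene, and 29.6% to 33.0% in iRGCs and 25.9% to 28.2% in cRGCs were not unique.

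The main test was edgeR 4.0.16 under R 4.3.3 (filterByExpr, TMM, quasi-likelihood, no block). The SE is the absolute log2 fold change over the square root of F. Geometric means used a pseudocount of 0.5 CPM. Precision rests on 28193178 to 33638083 counts per library and a biological coefficient of variation of 36.3%. Windows were matched base for base on both strands of GRCm38.p6. Named by rule were the 5 members with most counts per kilobase of exon, up to 6 called members per direction with the largest change, members of the stalk, 5S RNP, tunnel and paralogue lists, up to 3 called genes per direction of other lists, with at least 100 normalized counts, and fixed genes of protein synthesis. Members outside this rule (Rps3, Rps6, Rps10, Rps12, Rps15a, Rps16, Rpl6, Rpl14, Rpl15, Rpl24, Rpl26, Rpl27a, Rpl28, Rpl29, Rpl34, Rpl35a, Rpl37, Rps27a) were named after their values were seen. Members and lists were chosen with earlier results of these data known. Alternatives were other scalings, DESeq2 1.42.0, limma 3.58.1 voom, other filters, a replicate block, stricter thresholds, gene subsets and leaving out each library. Fits were tested on simulated data. The 13 ATAC-seq samples were not used here. Some named genes are not reported here.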

Additional observations from a re-analysis of the deposited data

How the results depend on the processing

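Across other scalings, DESeq2, limma voom, other filters, protein-coding genes alone and each library left out, 41 to 52 members were higher in iRGCs and 0 lower. Leaving out 1 library gave 6303 to 7603 genes called in all, 41 to 47 members higher, 0 lower, a median log2 fold change of members of 0.56 to 0.67, and a difference in share of 0.325 to 0.359 percentage points. With library totals in place of TMM the members' median was 0.81, but the median of all genes moved by 0.20 as well, and relative to it the members' median was 0.60. An absolute log2 fold change above 1 left 3688 genes and 2 members higher, Rps16 and Rps27l. With reads overlapping no gene in the denominator, the difference in share was 0.288 percentage points and the ratio 1.81. Chosen after seeing the data, members with at least 50% unique windows gave 21 of 25 higher, and those sharing no exonic base with another gene 27 of 40, with medians of 0.60 and 0.62. Of 408 values under other fits of the 24 members named by rule and tested, which leave out Rps16 and the other members named after their values were seen, 405 kept their side of the threshold, 1 lost the call and 2 gained it. Of 1466 values of 87 other named genes, 73 lost their call. No value called in either of the fits compared changed sign. Among values not called in either, Rpl5, Rpl11, Slc6a4, Eef2, Eif4ebp2, Larp1 and Mycn are genes named by rule that changed sign in some fits. Rps6, Rpl28 and Rpl37, named after their values were seen, also changed sign in some fit. The replicate numbers did not pair the libraries: same-numbered libraries deviated with correlations of -0.0121, -0.0237 and -0.0550, and with the replicate block 45 members were higher, 6751 genes were called, 5 aminoacyl-tRNA synthetases were higher and 3 genes of the mTORC1 and Myc list lower. Of 12 tested members under 100 normalized counts, 1 was called higher, beside 8.83% of all tested genes with as few counts. The part of depth in this was not tested.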
